A study of Sus scrofa with 11 samples.

Results

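Collagens, laminins and integrins make up much of the scaffold around heart muscle cells and the receptors that hold the cells to it. They were taken here as the probe sets whose single gene symbol in the platform annotation begins with COL, LAMA, LAMB, LAMC, ITGA or ITGB followed by a digit. This rule found 59 probe sets of 51 genes, among 27558 probe sets and 12217 named genes in the deposited table. Of these, 56 probe sets of 50 genes passed a filter that left out the 25% of all probe sets with the lowest mean signal, which lay below 3.63 on the log2 scale. ITGB3, the second probe set of COL8A1 and the third probe set of ITGA2 did not pass it. The 50 genes were 10 fibrillar collagen chains, 10 basement membrane chains (4 of type IV collagen and 6 of laminin), 14 integrin chains and 15 other collagens. The last gene, COL4A3BP, matched only by its letters: it encodes a lipid transfer protein and is no collagen. It is counted among the 50 because the rule takes it in. Several central chains, among them COL6A1, COL6A2, COL18A1, LAMB2, LAMC1, ITGA1, ITGA6 and ITGA7, were not analysed here.

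The samples came from the left ventricle of male Yorkshire pigs, within the ischemic territory of hearts that all carried an ameroid constrictor, a ring that slowly narrows a vessel, on the left circumflex coronary artery. Pigs ate a high fat diet (HFD) or a normal diet (ND) for 12 weeks, and received into the heart muscle either extracellular vesicles (EV), small membrane-bound particles that cells shed, or vehicle alone. Tissue was taken 5 weeks after the injection and read on an Affymetrix whole-transcript array. The groups were HFD+EV with 3 arrays, HFD with vehicle with 2 arrays, ND+EV with 3 arrays and ND with vehicle with 3 arrays. No group lacked the constrictor, so no value here compares an ischemic with a healthy heart. The labels call the arrays of a group biological replicates and tie none to a named animal. The comparisons ask what the diet and the injection each go with, and whether the one goes with a difference in the other.

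Fibrillar collagens such as types I and III form the cables that give heart muscle its tensile strength, and fibroblasts make most of them. Type IV collagen and laminins form the basement membrane, the thin sheet around each muscle cell and under the endothelium of each vessel. Integrins are pairs of one α and one β chain in the cell membrane, which bind this matrix outside the cell and link it to the cytoskeleton inside. In hearts with poor blood supply, collagen made by fibroblasts is known to replace lost muscle.

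Every value is the deposited normalized log2 signal, and a fold change is a difference of group means on that scale with its limma standard error (SE). Where a gene had several probe sets, the brightest on average stood for it. Signals of different probe sets are not compared as levels, since each binds with its own strength. Array medians ran from 4.36 to 4.48. ND replicates 1 and 3 stood apart from the rest, with mean correlations to the other arrays of 0.946 and 0.952, against 0.965 to 0.972 for the other 9 arrays. They also had the narrowest spread of signal, with standard deviations (SD) of 1.45 and 1.47, and HFD replicate 2 had the widest, at 1.62. The measured cardiomyocyte markers (6 of 8 listed) had array means between 11.03 and 11.43. Exact ties between arrays were common: 44.1% of the 59 probe sets had a value that at least 2 arrays shared, beside 46.7% of all probe sets. In bulk tissue, fewer cells of a type and less RNA per cell cannot be told apart.

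No gene of the 50 passed an adjusted p of 0.05 in any of 7 contrasts, by limma with p adjusted after Benjamini and Hochberg over the 20668 probe sets that passed the filter. In HFD against ND the share of all probe sets past that threshold was 0.735%, and in the mean diet effect over both injections it was 1.17%. For HFD+EV against ND+EV it was 0%, as it was for HFD+EV against HFD, ND+EV against ND, the mean EV effect and the difference of the EV effects. The words higher and lower therefore give the direction of a difference of means and no call. At an unadjusted p under 0.05, HFD against ND held 16 of the 50 genes, beside 24.0% of all probe sets. The EV comparison held 1 of 50 under the high fat diet (HFD+EV against HFD) beside 5.54%, and 5 of 50 under the normal diet (ND+EV against ND) beside 8.51%. HFD+EV against ND+EV held 1 of 50 beside 7.36%. The mean diet effect held 12 of 50 beside 24.7%, the mean EV effect 3 of 50 beside 5.42%, and the difference of the EV effects 2 of 50 beside 8.42%.

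**Figure D1:**
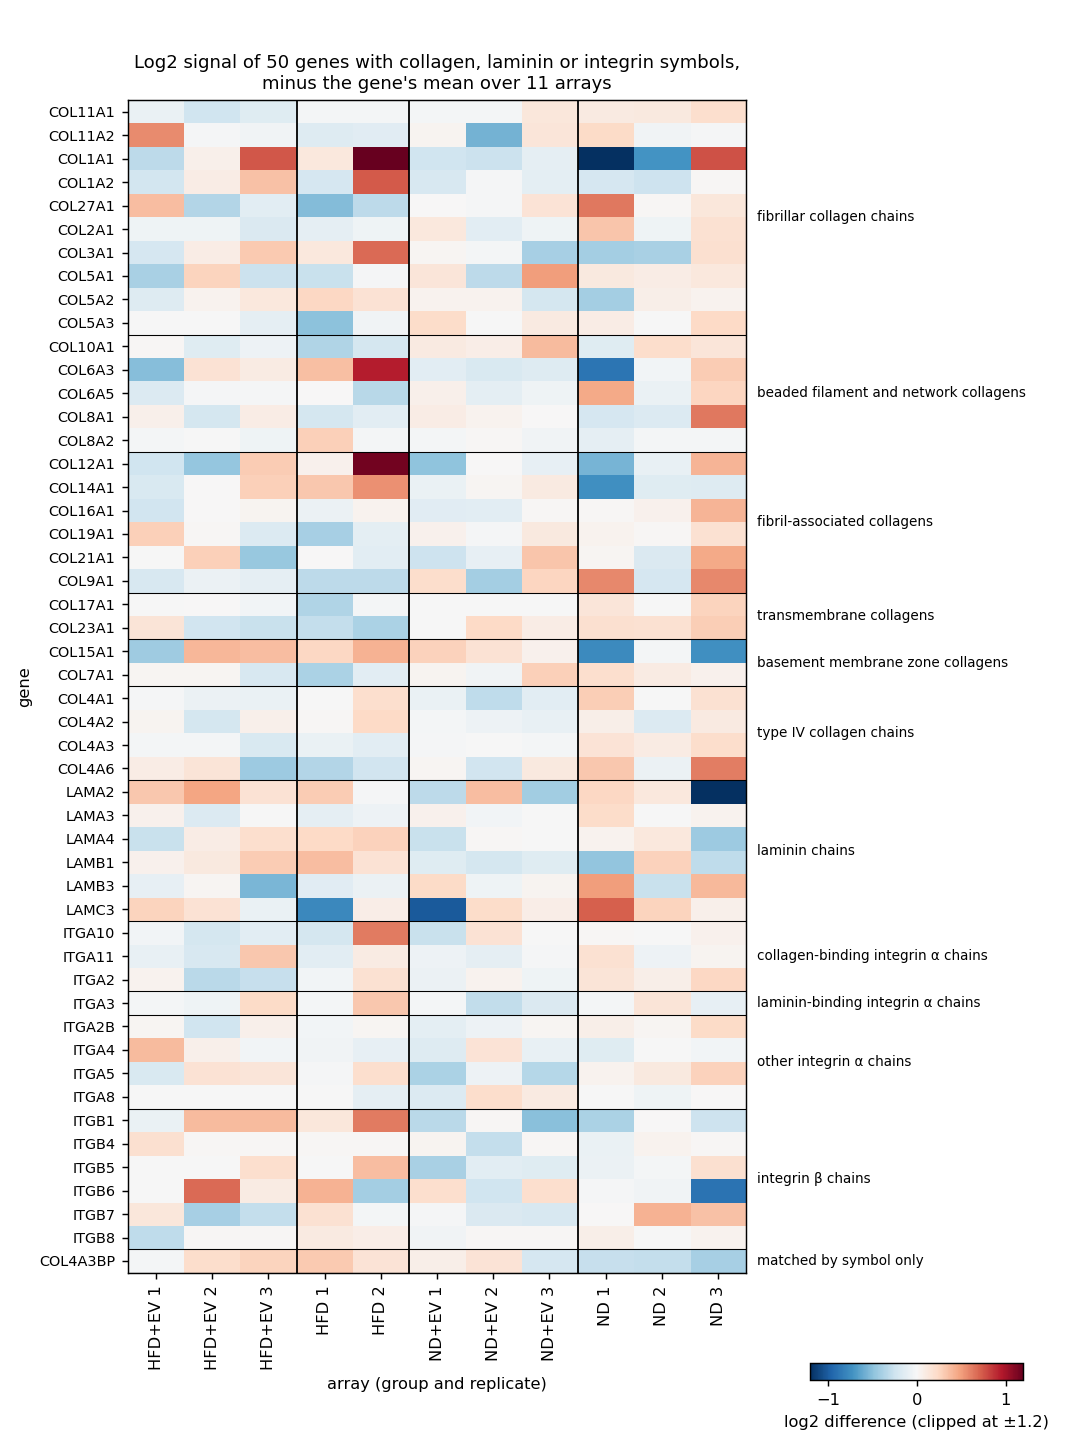
Log2 signal of each of the 50 genes on each of 11 arrays, minus the gene's own mean over the arrays; red is above and blue below that mean, the colour is clipped at 1.2, rows are genes by class and columns are arrays from HFD+EV on the left to ND on the right. COL1A1, COL6A3 and COL12A1 are darkest red on HFD replicate 2, and the darkest blue cells are COL1A1 on ND replicate 1 and LAMA2 on ND replicate 3.

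The fibrillar collagens did not move as a block with diet. In HFD against ND, 4 of 10 chains were higher and 6 lower, with a median log2 fold change of -0.19, beside a median of -0.02 over all probe sets. The 4 higher chains were those of the abundant heart collagens, COL1A1, COL1A2 and COL3A1, and COL5A2. Their fold changes were 1.16, 0.42, 0.60 and 0.31, while COL5A1 was lower by 0.25. The chains lower in HFD were led by COL27A1, a fibrillar collagen known chiefly from cartilage. The median was -0.12 after cyclic loess, -0.13 after quantile normalization and -0.07 without ND replicates 1 and 3. The other comparisons had medians near 0: HFD+EV against HFD gave 4 higher and 6 lower with -0.07 (0.09 without HFD replicate 2), HFD+EV against ND+EV 5 higher and 5 lower, and ND+EV against ND 6 higher and 4 lower.

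COL1A1, the main chain of type I collagen, varied widely within groups. Its signal was 10.38 and 11.55 in HFD, against 8.87, 9.53 and 11.02 in ND. The groups overlapped, because ND replicate 3 lay above HFD replicate 1. It was 9.93, 10.31 and 10.997 in HFD+EV, against 10.01, 9.99 and 10.14 in ND+EV. The spread within groups was larger than for 98.7% of the probe sets tested, with a pooled SD of 0.73. The difference of 1.16 ± 0.55 (SE) in HFD against ND did not pass (limma, adjusted p = 0.227), with a 95% interval from -0.05 to 2.37. Leaving out HFD replicate 2 gave 0.57, HFD replicate 1 gave 1.75, ND replicate 1 gave 0.69 and ND replicate 3 gave 1.77, and cyclic loess gave 0.69. The second COL1A1 probe set gave 0.17 in the same comparison and -0.36, against 0.37 for the first, in HFD+EV against ND+EV, so the 2 disagreed in direction there.

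COL1A2, the partner chain of COL1A1 in type I collagen, had 7.34 and 8.28 in HFD, against 7.34, 7.29 and 7.56 in ND. HFD replicate 2 stood above the ND arrays and HFD replicate 1 among them. The difference of 0.42 ± 0.25 was -0.05 without HFD replicate 2, 0.88 without HFD replicate 1, 0.08 after cyclic loess and 0.10 after quantile normalization. COL3A1, the chain of type III collagen that shares fibrils with type I, had 7.09 and 7.65 in HFD, against 6.56, 6.58 and 7.16 in ND. One ND array lay between the HFD arrays, and the difference was 0.60 ± 0.24 (limma, adjusted p = 0.168). It was 0.33 without HFD replicate 2, and also after cyclic loess and after quantile normalization.

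In HFD+EV, COL3A1 was at 6.76, 7.06 and 7.28, against 6.99, 6.94 and 6.57 in ND+EV. These groups overlapped, with a difference of 0.20 ± 0.22. COL5A2, a chain of type V collagen that sits inside type I fibrils, had 5.76 and 5.68 in HFD, against 5.10, 5.58 and 5.55 in ND. Both HFD arrays were above all 3 ND arrays, with ND replicate 1 below all others, and the difference of 0.31 was 0.16 without that array. COL5A1, the other main chain of type V, had 4.14 and 4.40 in HFD, against 4.53, 4.51 and 4.54 in ND, so the groups did not overlap either, in the opposite direction. Its difference was -0.13 without HFD replicate 1, -0.38 without HFD replicate 2, -0.16 after cyclic loess and -0.17 after quantile normalization.

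COL27A1 had 4.93 and 5.14 in HFD, against 6.09, 5.47 and 5.59 in ND. All HFD arrays were lower, by 0.68 on average (SE 0.23, limma, adjusted p = 0.113). In HFD+EV it had 5.82, 5.10 and 5.33, against 5.46, 5.44 and 5.61 in ND+EV. There the groups overlapped and the difference was -0.09.

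**Figure D2:**
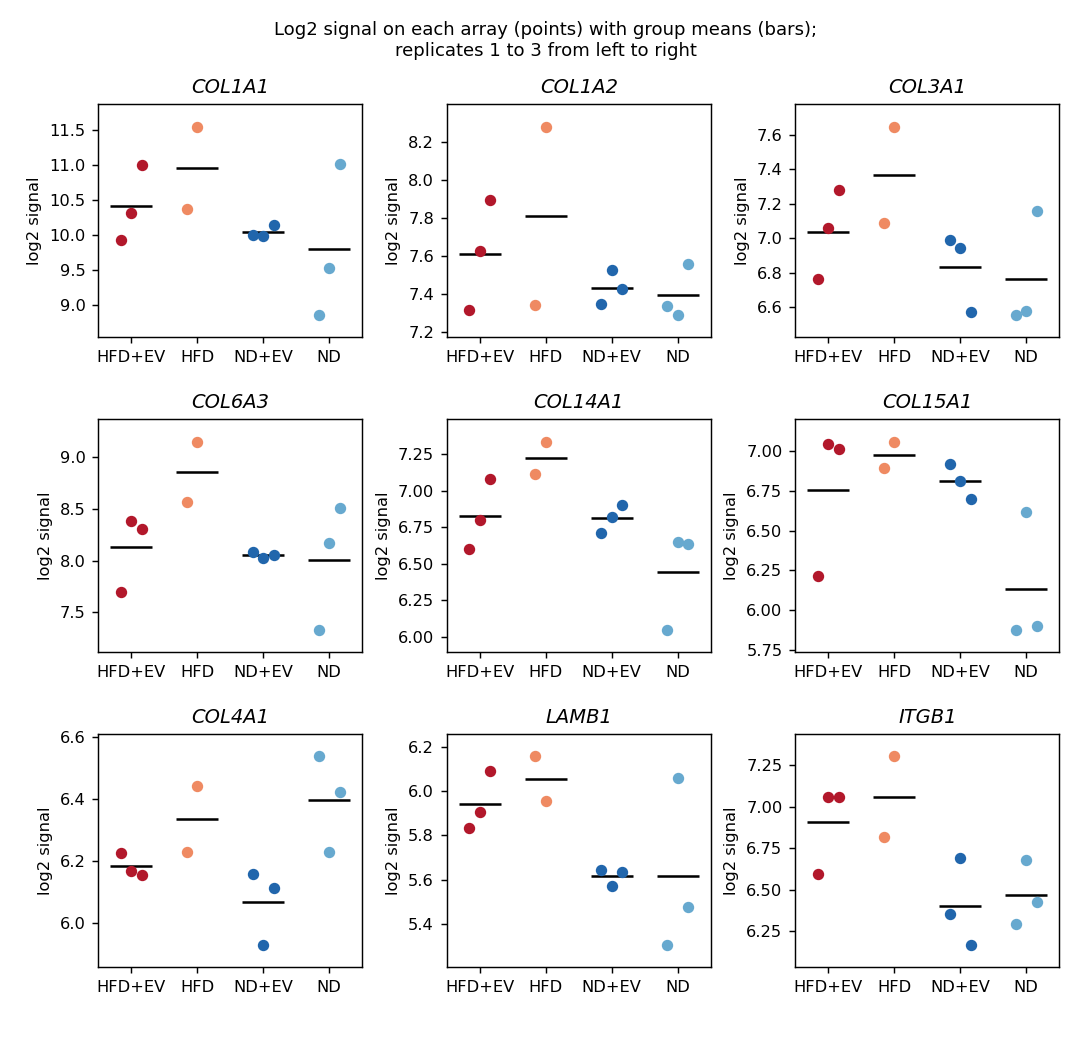
Log2 signal (vertical axis, its own range in each panel) of 9 genes on every array, as points, with the group mean as a bar; groups run from HFD+EV through HFD and ND+EV to ND. For COL1A1, COL1A2, COL3A1, COL6A3, COL14A1, COL15A1 and ITGB1 the highest point is HFD replicate 2. COL6A3, COL14A1, COL15A1 and ITGB1 have both HFD points above every ND point.

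Among the other collagens, those with the smallest p in the diet comparison were 1 fibril-associated, 1 transmembrane and 1 basement membrane zone collagen. COL14A1 coats the surface of type I fibrils in tissue under strain. Its signal was 7.11 and 7.33 in HFD, against 6.05, 6.65 and 6.64 in ND. Both HFD arrays were above all ND arrays. The difference of 0.78 ± 0.20 had the smallest p of the 50 genes and did not pass (limma, adjusted p = 0.0762). It was between 0.58 and 0.89 when any 1 array was left out, and 0.53 after cyclic loess, its lowest value under any alternative.

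COL14A1 was the gene in which EV and vehicle arrays were ordered oppositely under the diets. It had 6.60, 6.80 and 7.08 in HFD+EV, against 7.11 and 7.33 in HFD, and 6.71, 6.82 and 6.90 in ND+EV, against 6.05, 6.65 and 6.64 in ND. All HFD+EV arrays lay below both HFD arrays, and all ND+EV arrays lay above all ND arrays. The difference of the EV effects was -0.76 ± 0.27 (limma, adjusted p = 0.572). Of the 50 genes it alone showed this order, which is 2%, beside 1.67% of all probe sets.

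COL23A1, a transmembrane collagen, was lower with the diet. It had 6.35 and 6.25 in HFD, against 6.83, 6.82 and 6.93 in ND. It had 6.79, 6.41 and 6.36 in HFD+EV, against 6.63, 6.87 and 6.73 in ND+EV. Both HFD arrays lay below every ND array, whereas HFD+EV replicate 1 lay among the ND+EV arrays. The difference was -0.56 ± 0.15 in HFD against ND (limma, adjusted p = 0.0778) and -0.22 ± 0.14 in HFD+EV against ND+EV. Averaged over both injections it was -0.39 ± 0.10, with the smallest adjusted p of the 50 genes for that effect (limma, 0.0687).

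COL15A1 belongs to the zone that joins the basement membrane to the fibres outside it, in muscle and around small vessels. It had 6.89 and 7.06 in HFD and 6.92, 6.81 and 6.70 in ND+EV, against 5.88, 6.62 and 5.90 in ND. Every array of both groups lay above every ND array. The difference was 0.84 ± 0.28 in HFD against ND (limma, adjusted p = 0.108) and 0.68 ± 0.25 in ND+EV against ND (limma, adjusted p = 0.548). Both comparisons share the 3 ND arrays, of which replicates 1 and 3 are the ones that stood apart. Without those 2 arrays the differences were 0.36 and 0.19. In HFD+EV the signal was 6.21, 7.04 and 7.01, so 1 array lay well below the others. The difference of the EV effects was -0.89 ± 0.37 (limma, adjusted p = 0.578) and came to -0.14 with HFD+EV replicate 1 and ND replicates 1 and 3 left out.

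COL6A3, a chain of the beaded type VI collagen that surrounds muscle cells, had 8.57 and 9.15 in HFD, against 7.33, 8.17 and 8.51 in ND. It had 7.70, 8.38 and 8.30 in HFD+EV, against 8.08, 8.02 and 8.05 in ND+EV. On this probe set, its brightest, both HFD arrays were above every array of the other 3 groups. The difference was 0.85 ± 0.32 in HFD against ND (limma, adjusted p = 0.145) and -0.73 ± 0.32 in HFD+EV against HFD (limma, adjusted p = 0.895). The second of these was the smallest p of the 50 genes in its comparison. Those comparisons share the 2 HFD arrays. Without HFD replicate 2 the values were 0.56 and -0.44, and the first was 0.52 without ND replicate 1, 0.46 after cyclic loess and 0.52 after quantile normalization. Its 2 other probe sets gave 0.80 and 0.12 in HFD against ND, and -0.35 and -0.18 in HFD+EV against HFD. On the first of these 2, ND replicate 3 lay above HFD replicate 1. On the second, ND+EV replicate 3 lay above both HFD arrays.

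COL12A1, which lies on fibril surfaces beside type I collagen, had 4.41, 4.19 and 4.95 in HFD+EV, against 4.70 and 5.81 in HFD. HFD replicate 2 was above every other array, and the groups overlapped. The difference of -0.74 ± 0.36 was -1.29 without HFD replicate 1 and -0.19 without HFD replicate 2. COL19A1, another fibril-associated collagen, had 5.62, 5.34 and 5.16 in HFD+EV, against 4.93 and 5.21 in HFD. The groups overlapped, with a difference of 0.30 ± 0.16 that came to 0.16 without HFD replicate 1. Leaving out HFD+EV replicate 1 gave 0.18. COL10A1, a network collagen known from growth cartilage, had 4.71, 4.54 and 4.63 in HFD+EV, against 4.79, 4.76 and 5.07 in ND+EV. All HFD+EV arrays were lower, by 0.25 on average, and by 0.15 without ND+EV replicate 3. Over both injections its diet effect was -0.30 ± 0.10 (limma, adjusted p = 0.112).

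As a class, 5 of the 15 other collagens were higher in HFD than in ND and 10 lower, with a median of -0.26. HFD+EV had 9 higher and 6 lower than HFD, and 4 higher and 11 lower than ND+EV. In ND+EV against ND, 5 were higher and 10 lower. COL4A3BP, the lipid transfer gene that the rule takes in, had 5.84 and 5.68 in HFD, against 5.24, 5.24 and 5.13 in ND, a difference of 0.56 ± 0.15 without overlap (limma, adjusted p = 0.0775). In ND+EV it had 5.59, 5.68 and 5.32, also above all ND arrays, by 0.33 ± 0.13.

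The basement membrane chains went in both directions, from LAMC3 at -0.70 to LAMB1 at 0.44 in HFD against ND. HFD had 4 of 10 higher than ND and 6 lower, with a median of -0.11, which was 0.01 without ND replicates 1 and 3. Between HFD+EV and HFD, 5 were higher and 5 lower, and between HFD+EV and ND+EV, 6 were higher and 4 lower. In ND+EV against ND, 2 were higher and 8 lower, with a median of -0.11, beside -0.005 over all probe sets. All 4 type IV chains were lower there, with a median of -0.24. For all 10 basement membrane chains in ND+EV against ND, the median was -0.12 after loess and -0.14 after quantile normalization, so neither turned its sign.

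COL4A1 and COL4A2 form the type IV collagen found in nearly every basement membrane, including that of capillaries. COL4A1 had 6.16, 5.93 and 6.11 in ND+EV, against 6.54, 6.23 and 6.42 in ND. All ND+EV arrays were lower, by 0.33 on average (SE 0.12, limma, adjusted p = 0.555), and by 0.16 without ND replicates 1 and 3. It had 6.23, 6.17 and 6.15 in HFD+EV, against 6.23 and 6.44 in HFD, where the highest HFD+EV array was just below HFD replicate 1. Over both diets the EV effect was -0.24 ± 0.09 (limma, adjusted p = 0.906).

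COL4A2 varied little between groups. It had 6.63, 6.38 and 6.65 in HFD+EV, 6.61 and 6.83 in HFD, 6.57, 6.53 and 6.50 in ND+EV and 6.66, 6.43 and 6.70 in ND. The 4 groups overlapped apart from HFD, whose arrays were both above the ND+EV arrays. Its diet difference in vehicle hearts was 0.12 ± 0.14, ranged between 0.01 and 0.24 when an HFD array was left out, was 0.04 without ND replicate 2, and turned to -0.10 after cyclic loess and -0.12 after quantile normalization. COL4A6, a chain of specialised basement membranes, had 3.95 and 4.07 in HFD, against 4.62, 4.23 and 4.92 in ND. Both HFD arrays were lower, by 0.58 on average (SE 0.23, limma, adjusted p = 0.158).

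Among laminins, LAMA2, the α chain around adult muscle cells, had 8.92 and 8.60 in HFD, against 8.86, 8.74 and 7.35 in ND. ND replicate 3 was far below all other arrays. The difference of 0.44 ± 0.40 was -0.05 without it, 0.02 after cyclic loess and 0.05 after quantile normalization. Leaving out ND replicate 1 gave 0.71, and HFD replicate 1 gave 0.28. LAMA4, the α chain under endothelium, had 7.52 and 7.55 in HFD, against 7.32, 7.41 and 6.85 in ND. Both HFD arrays were above the ND arrays, by 0.34 ± 0.20 on average. The difference was 0.03 after cyclic loess, 0.02 after quantile normalization and 0.17 without ND replicate 3.

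LAMB1, a β chain of many laminins, had 6.16 and 5.96 in HFD, against 5.31, 6.06 and 5.48 in ND. ND replicate 2 lay between the HFD arrays, and the difference was 0.44 ± 0.20 (limma, adjusted p = 0.208). It had 5.83, 5.90 and 6.09 in HFD+EV, against 5.64, 5.57 and 5.64 in ND+EV. Here all HFD+EV arrays were higher, by 0.33 ± 0.18. Without ND replicate 2 the first difference was 0.66 and passed (limma, adjusted p = 0.0357). Without ND replicate 1 it was 0.29, and without ND replicates 1 and 3 it was -0.003. LAMC3, a laminin γ chain, had 5.32, 5.22 and 4.98 in HFD+EV, against 4.28 and 5.14 in HFD, and 4.05, 5.27 and 5.14 in ND+EV, against 5.77, 5.32 and 5.12 in ND. HFD replicate 1 and ND+EV replicate 1 were the lowest arrays, and the difference of the EV effects was 1.05 ± 0.49 (limma, adjusted p = 0.593), and 0.62 without the first or 0.66 without the second of those arrays.

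**Figure D3:**
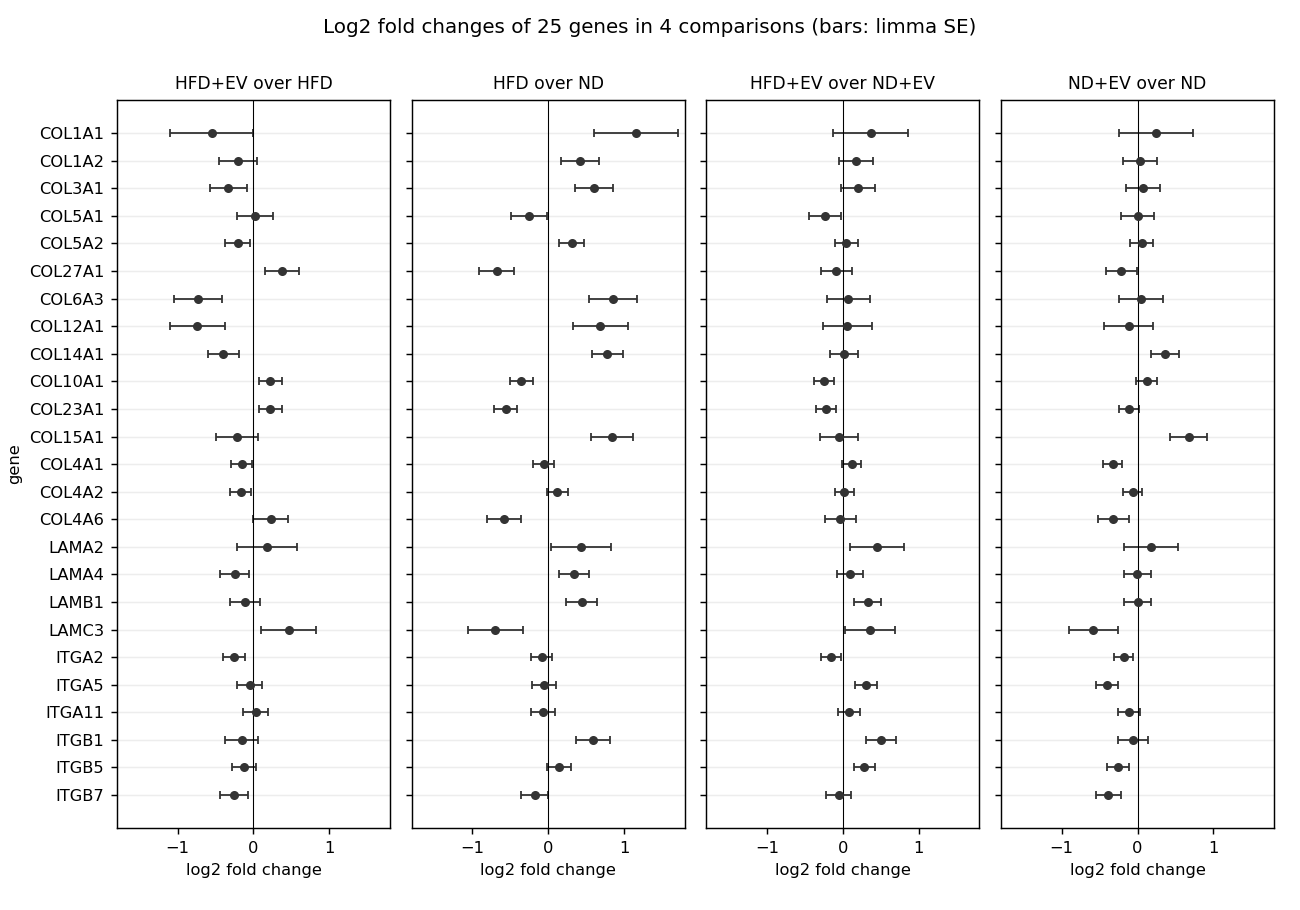
Log2 fold changes (horizontal axis) of 25 genes in the 4 pairwise comparisons, each point with its limma standard error as a bar. In HFD over ND, COL1A1, COL6A3, COL15A1 and COL14A1 lie farthest right, and COL6A3 and COL12A1 lie farthest left in HFD+EV over HFD.

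Of the 14 integrin chains, HFD had 7 higher than ND and 7 lower, and 5 of 6 β chains were higher. The median over the 14 was 0.01, and 0.08 after cyclic loess, after quantile normalization and with the stricter 50% filter. In EV hearts, HFD+EV had 9 higher than ND+EV and 5 lower, with a median of 0.11. It was 0.11 after cyclic loess, 0.10 after quantile normalization, 0.05 without ND+EV replicate 2 and 0.21 with the 50% filter. With EV, 5 were higher and 9 lower under the high fat diet, and 3 were higher and 11 lower under the normal diet, with medians of -0.07 and -0.09. The first of these medians was 0.06 without HFD replicate 2 and -0.16 without HFD replicate 1.

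ITGB1 encodes the β1 chain, the common partner of the collagen- and laminin-binding α chains. It had 6.82 and 7.30 in HFD, against 6.30, 6.68 and 6.43 in ND. It had 6.60, 7.06 and 7.06 in HFD+EV, against 6.36, 6.69 and 6.17 in ND+EV. The HFD arrays were above all ND arrays, and 2 of 3 HFD+EV arrays were above all ND+EV arrays. The differences were 0.59 ± 0.22 (limma, adjusted p = 0.139) and 0.50 ± 0.20 (limma, adjusted p = 0.636), the smallest p of the 50 genes in HFD+EV against ND+EV. Over both injections the diet effect was 0.55 ± 0.15 (limma, adjusted p = 0.0730). The vehicle and the EV comparison share no array. The vehicle difference was 0.35 without HFD replicate 2, 0.36 after cyclic loess and 0.35 after quantile normalization.

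ITGA5, the α chain of the fibronectin receptor, had 6.52, 6.85 and 6.56 in ND+EV, against 6.95, 7.02 and 7.18 in ND. All ND+EV arrays were lower, and the difference of -0.41 ± 0.14 had the smallest p of the 50 genes in that comparison (limma, adjusted p = 0.548). It had 6.72, 7.08 and 7.05 in HFD+EV, against 6.89 and 7.11 in HFD. Those groups overlapped, with a difference of -0.05 ± 0.16. In HFD+EV against ND+EV it was 0.31 ± 0.14, and 0.20 after quantile normalization, with HFD+EV replicate 1 among the ND+EV arrays.

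ITGB5, the β partner of the αv chain in a receptor for vitronectin, had 7.17, 7.17 and 7.37 in HFD+EV, against 6.79, 7.05 and 7.03 in ND+EV. All HFD+EV arrays were higher, by 0.28 ± 0.14 (limma, adjusted p = 0.702), by 0.18 after cyclic loess and by 0.16 after quantile normalization. Its difference in HFD against ND was 0.15 and turned to -0.15 after both cyclic loess and quantile normalization. ITGB7, a β chain of leukocyte integrins, had 4.73, 4.56 and 4.55 in ND+EV, against 4.74, 5.15 and 5.10 in ND. All ND+EV arrays were lower, ND+EV replicate 1 only just, and over both diets the EV effect was -0.32 ± 0.12 (limma, adjusted p = 0.904). Its second probe set went the other way, with 0.06 for that effect. In ND+EV against ND the second gave 0.14 and the first -0.38.

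ITGA2, an α chain of a collagen receptor, had 4.04, 3.68 and 3.72 in HFD+EV, against 3.96 and 4.17 in HFD, and 3.93, 4.04 and 3.95 in ND+EV, against 4.15, 4.07 and 4.25 in ND. The ND+EV arrays were all below the ND arrays, and the EV effect over both diets was -0.22 ± 0.10 (limma, adjusted p = 0.913). ITGA11, the fibroblast collagen receptor chain, had 4.40 and 4.62 in HFD, against 4.71, 4.46 and 4.56 in ND. These overlapped, with a difference of -0.07 ± 0.16 that turned to 0.02 after cyclic loess and 0.01 after quantile normalization.

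Separation of groups was counted alongside the test. In HFD against ND, 8 of the 50 genes had all HFD arrays above all ND arrays, beside 19.4% of all probe sets, and 14 had all HFD arrays below, beside 19.7%. Between HFD+EV and HFD, 5 were wholly higher beside 12.2%, and 7 wholly lower beside 11%. Between HFD+EV and ND+EV, 2 were wholly higher beside 7.58%, and 2 wholly lower beside 6.93%. In ND+EV against ND, 3 were wholly higher beside 6.32%, and 6 wholly lower beside 5.31%. As shares of the 50, the diet comparison in vehicle hearts had 16% wholly higher and 28% wholly lower, and the diet comparison in EV hearts had 4% of each.

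The direction of a gene's diet difference went with its signal. Of the 16 genes at an unadjusted p under 0.05 in HFD against ND, the 7 higher ones (COL14A1, COL4A3BP, COL15A1, ITGB1, COL6A3, COL3A1 and LAMB1) had mean signals between 5.52 and 8.21. The 9 lower ones (COL23A1, COL27A1, COL4A6, COL7A1, COL9A1, COL17A1, COL5A3, COL10A1 and COL4A3) lay between 3.90 and 6.63. Across the 50 genes the correlation of fold change with mean signal was 0.63, and across all 20668 probe sets it was 0.34. Genes are not independent replicates, and all points share the same 5 arrays, so these are descriptions.

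Among the 25% of probe sets with the highest mean signal were 15 of the genes, of which 12 were higher in HFD and 3 lower, with a median of 0.42. All probe sets of that band had a median of 0.28, and 72.9% of them were higher. After cyclic loess 10 of the 15 were higher, and the correlation over the 50 genes was 0.28 and over all probe sets -0.03. After quantile normalization 10 were higher as well, and the correlations were 0.34 and 0.04. In HFD+EV against ND+EV the correlation was 0.54 over the 50 genes and 0.16 over all probe sets. In HFD+EV against HFD it was -0.35 and -0.16, and in ND+EV against ND 0.37 and 0.24.

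**Figure D4:**
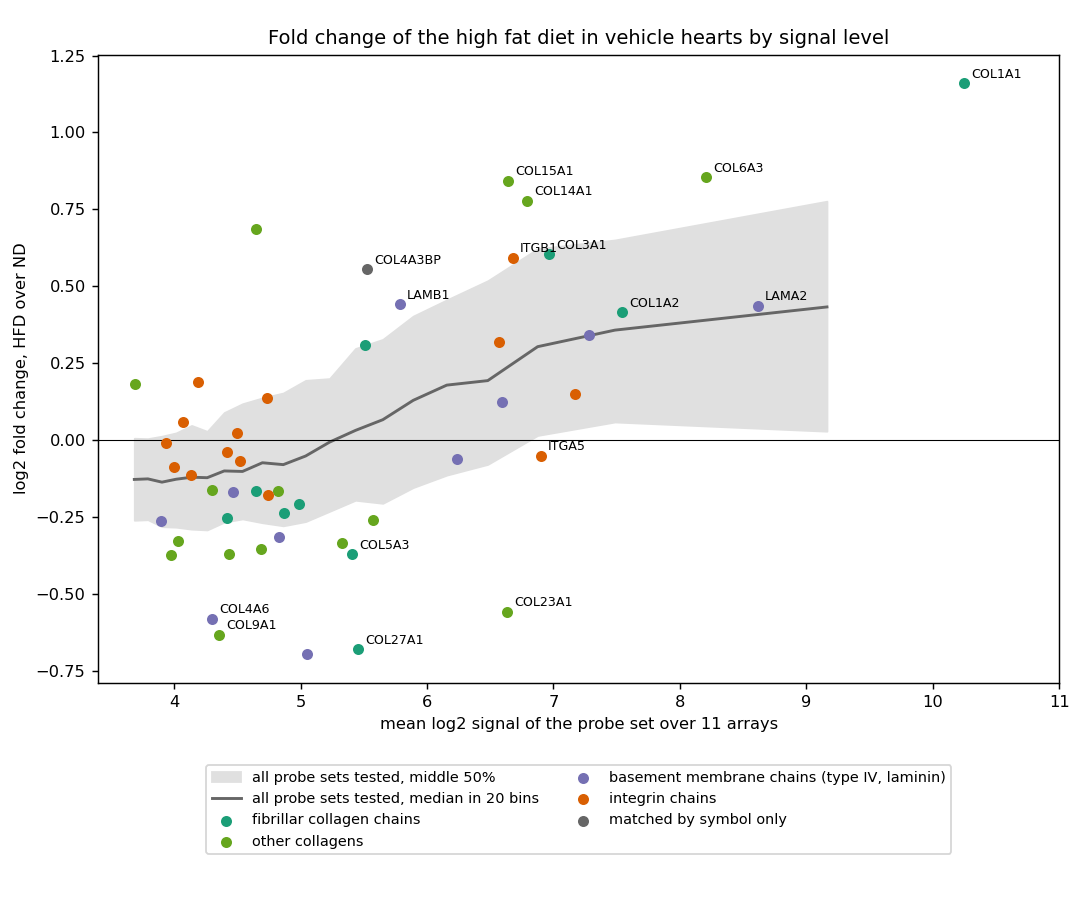
Log2 fold change of HFD over ND (vertical axis) against the mean log2 signal of the probe set over 11 arrays (horizontal axis), with the 50 genes as points coloured by class and all probe sets tested as a grey line (median in 20 bins) and band (middle 50%). The grey line climbs with signal. COL6A3, COL15A1 and COL14A1 are among the genes above the band, and COL23A1, at a mean signal of 6.63, lies well below it. COL1A1, at 10.25, lies to the right of where the band ends, at 9.16.

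The highest arrays of these bright genes were concentrated. HFD replicate 2 was the highest of the 11 arrays for 10 of the 15, namely COL1A1, COL1A2, COL3A1, COL4A2, COL6A3, COL14A1, COL15A1, LAMA4, ITGB1 and ITGB5. That is 66.7%, beside 21.8% of all probe sets in the same band. ND replicate 1 was the lowest array for 5 of the 15, or 33.3%, beside 34.1%.

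The diet comparisons in vehicle and in EV hearts use different arrays. In both, 38 of the 50 genes had the same direction, which is 76%, beside 66.7% of all probe sets. Of the 16 genes at an unadjusted p under 0.05 in HFD against ND, 15 had the same direction in HFD+EV against ND+EV, beside 78.4% of all probe sets chosen the same way. COL15A1 was the exception, at -0.05. The median size over the 16 was 0.57 in vehicle hearts, where they were chosen, and 0.14 in EV hearts. Over all probe sets chosen the same way it was 0.61 and 0.17, a like drop. In EV hearts COL14A1 had 0.02, COL6A3 0.07 and COL3A1 0.20, while ITGB1 had 0.50 and LAMB1 0.33.

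Partner genes from 4 lists were read beside the members, and none passed in any contrast. As background, 47.5% of all probe sets were higher in HFD than in ND. In the band with the highest mean signal, which began at 6.02, the share was 72.9%. That share was 51.6% after cyclic loess and 53.3% after quantile normalization. Whether the counts of the partner lists hold after either was not tested. Of 17 genes for collagen maturation and cross-linking, 12 were higher in HFD than in ND and 5 lower, with a median of 0.13. FKBP10, a chaperone of procollagen, was higher by 0.93 ± 0.22 (limma, adjusted p = 0.0656), and LOXL3, a cross-linking oxidase, was lower by 0.43 ± 0.14. With EV under the high fat diet, 6 were higher and 11 lower, with FKBP10 at -0.67 ± 0.22 and SERPINH1, the collagen-specific chaperone HSP47, at -0.56 ± 0.21. Between the diets in EV hearts, 14 were higher and 3 lower. In ND+EV against ND, 5 were higher and 12 lower, with LOXL3 at -0.38.

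Of 10 genes for matrix breakdown and its inhibitors, 9 were higher in HFD than in ND and 1 lower, with a median of 0.36. FAP, a protease of activated fibroblasts, was at 0.55 ± 0.22, and MMP11, a stromal metalloproteinase, was the lower one at -0.49 ± 0.20. HFD+EV had 3 higher than HFD and 7 lower, with MMP11 at 0.52. Of 8 basement membrane partners, 7 were higher in HFD than in ND. SGCB, a sarcoglycan of the complex that ties muscle cells to laminin, was at 0.98 ± 0.22 (limma, adjusted p = 0.0612), and SPARC, a collagen-binding protein, at 0.69. Between HFD+EV and HFD, 2 of the 8 were higher and 6 lower, with SGCB at -0.56.

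Of 12 genes of the integrin adhesion complex, 8 were higher in HFD than in ND and 4 lower. TLN1, the talin that switches integrins on, was at 0.48 ± 0.14, and VCL, vinculin, at 0.41 ± 0.13. Between HFD+EV and ND+EV, 8 were higher and 4 lower, with VCL at 0.28. Between HFD+EV and HFD, 4 were higher and 8 lower, and VCL was at -0.28.

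Markers of several cell types were read in the same groups. All 6 measured fibroblast markers of 7 listed were higher in HFD than in ND, with a median of 0.53, and none passed. Beside them, 72.9% of all probe sets in the band with the highest mean signal were higher, with a median of 0.28. That band began at 6.02, below every array mean of the fibroblast markers. Whether the marker counts hold after cyclic loess or quantile normalization, or with an array left out, was not tested. The mean of the fibroblast markers was 8.01 and 8.21 in HFD, against 7.02 to 7.91 in ND, and 7.68 to 8.18 in HFD+EV, against 7.75 to 7.98 in ND+EV. The 7.02 was ND replicate 1, an array that stood apart. Relative to each marker's mean over all arrays, ND replicate 1 was at -0.84, and ND replicates 2 and 3 at 0.05 and -0.12. On that scale the HFD arrays were at 0.15 and 0.36. LUM, a small matrix proteoglycan of fibroblasts, was at 1.04 ± 0.43 and PDGFRL at 0.82 ± 0.24 in HFD against ND. The 7 activated fibroblast markers had means of 5.51 and 6.29 in HFD, against 5.01 to 5.82 in ND. Of these 7, 5 were higher in HFD than in ND and 2 lower. All 5 measured endothelial markers were higher in HFD than in ND, with a median of 0.24. The 6 cardiomyocyte markers had a median of 0.27, with 4 higher and 2 lower. Of the leukocyte markers 2 were higher and 2 lower, and of the epithelial or mesothelial markers 2 were higher and 3 lower. Of 5 pericyte and smooth muscle markers 4 were higher and 1 lower, with a median of 0.02. The 2 adipocyte markers and the 1 Schwann cell marker that passed the filter were lower.

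The 6 atrial muscle markers were highest on HFD replicate 2, with a mean of 6.54, against 5.72 on HFD replicate 1 and between 4.97 and 5.62 on the ND arrays. They lay between 5.24 and 5.32 in HFD+EV. SLN, a regulator of the calcium pump in atrial muscle, was at 1.78 ± 0.61 and NPPA, the atrial natriuretic peptide, at 1.63 ± 0.65 in HFD against ND, and neither passed. Of the 6 markers, 5 were higher in HFD than in ND, and all 6 were lower in HFD+EV than in HFD. HFD replicate 2 is also the array with the highest signal of COL1A1, COL1A2 and COL3A1. It had the highest means of the fibroblast, the activated fibroblast, and the pericyte and smooth muscle markers as well. The part of any cell type in the COL1A1, COL1A2 and COL3A1 values was not tested.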

How the data were processed

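Total RNA, 50 ng a sample, was put on an Affymetrix whole-transcript array, per the labels' protocols. Transcriptome Analysis Console is named in the submitters' processing notes without a version. The values the authors deposited are normalized log2 signals of probe sets in 11 samples. Neither the method of summary and normalization nor the genome build was given in those sources.

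Symbols came from the platform's annotation and may be outdated: 13157 probe sets carried 1 symbol, 523 several and 13878 none. Of the 59 probe sets taken, 53 had a gene ID found in a current gene table, and no symbol was replaced. A probe set annotated with 2 gene IDs was not taken.

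From the deposited signals, limma (version 3.58.1, R 4.3.3) fitted 4 group means at once to 20668 probe sets by lmFit and eBayes, leaving 7 residual and 3.62 prior degrees of freedom. For each of 7 contrasts, two-sided p-values were adjusted across all probe sets in the fit. The functions were tested on simulated data. The genes described were those past the threshold (none), the 4 with the smallest p in each contrast, a fixed list of central chains, and up to 2 genes of each partner list per pairwise comparison; other names are genes that a count or figure singled out after their values were seen. The members, lists and tests were chosen with earlier results of these data known. Alternatives changed the filter, normalization, variance model, array weights, replicate block, probe set used per gene and arrays used. The replicate numbers were not taken to pair samples, because the labels state no pairing. Deviations from group means correlated between -0.10 and 0.33 in same-numbered arrays of different groups, with 5 of 15 pairs over 0.1. In differently numbered arrays of different groups they correlated between -0.34 and 0.19. These correlations do not settle whether samples were paired, and the replicate block is among the alternatives. The number of arrays limits the precision, and p-values measure only the spread between these samples.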

Additional observations from a re-analysis of the deposited data

Results flagged for a closer look

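COL14A1 was singled out because EV arrays lay on opposite sides of the vehicle arrays under the 2 diets, with a difference of the EV effects of -0.76 (SE 0.27). All 3 HFD+EV arrays lay below both HFD arrays and all 3 ND+EV arrays lay above all 3 ND arrays. Such opposite sides were seen in 1 of the 50 genes, or 2%, near the 1.67% of all probe sets. The test of that difference did not pass (limma, adjusted p = 0.572). The value was -0.45 with HFD+EV replicate 1 and ND replicates 1 and 3 left out. No group had the 4 samples that a check for a single far-off array needs.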

How the results depend on the processing

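With no member called in the main analysis, alternatives could only add calls. In HFD against ND the replicate block gave 1 call (COL14A1, limma, adjusted p = 0.0255), and leaving out 1 array gave 0 to 4: COL23A1 without HFD+EV replicate 1, and COL9A1, COL15A1, COL14A1 and LAMB1 without ND replicate 2. In the mean diet effect array weights gave 4 (ITGB1, COL6A3, COL23A1, COL4A3BP), the replicate block 2 (ITGB1, COL14A1), leaving out ND replicates 1 and 3 and HFD+EV replicate 1 together, an alternative chosen after seeing the data, gave 1 (COL6A3), and leaving out 1 array gave 0 to 3: ITGB1, COL23A1 and COL4A3BP without HFD+EV replicate 1, and LAMB1 without ND replicate 2. The other 5 contrasts had 0 calls under every alternative run. The replicate block made no call in those 5. In HFD against ND, leaving out 1 array gave COL1A2 between -0.054 and 0.88, COL4A1 between -0.17 and 0.047, ITGA11 between -0.18 and 0.040, ITGA5 between -0.16 and 0.056, ITGB5 between -0.040 and 0.34 and LAMA2 between -0.046 and 0.71. COL4A1 was 0.11, ITGA11 0.046 and LAMB1 -0.0032 without ND replicates 1 and 3, also with HFD+EV replicate 1 left out. After cyclic loess COL4A2 was -0.10, ITGA11 0.020 and ITGB5 -0.15, and after quantile normalization they were -0.12, 0.0086 and -0.15. The cause of these turns was not tested. Over all probe sets, the calls in HFD against ND were 152, and 0 after cyclic loess, after quantile normalization, with no filter, with trend and robust variances, with array weights and with only the groups compared, 214 with the 50% filter, 938 with the replicate block and 0 to 1356 when 1 array was left out. In the mean diet effect they were 242, and 0 after cyclic loess, after quantile normalization, with no filter and with trend and robust variances, 463 with the 50% filter, 1665 with array weights, 985 with the replicate block and 0 to 1399 when 1 array was left out. The 2 HFD arrays limit every comparison that uses them.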
